A study of Mus musculus with 9 samples.

Results

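The genes described here handle iron: Trf, Tfrc, Slc11a2 and Slc11a1 for uptake, Fth1 and Ftl1 for storage, and Slc40a1, Cp and Heph for export. They were found by their symbols in the authors' gene table, which held all 9 of them among 22337 genes. Each was measured by RNA-seq in whole retinas at postnatal day 28 (P28), with 3 libraries per group. WT were C57BL/6J mice that received no injection. The rd10 mice are Pde6b mutants. They carry a homozygous missense mutation in Pde6b, which helps to build the phosphodiesterase of rods, and they lose their photoreceptors. NS rd10 mice had both eyes injected with 1 μl of normal saline at P14 and P21. In MSC-EVs rd10 mice, littermates of the NS mice, the injections held extracellular vesicles of human umbilical cord mesenchymal stem cells. WT mice came from another supplier than the rd10 mice and were not injected, so the genotype, the supplier and the injection cannot be told apart wherever an rd10 group is compared with WT.

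Cells take up iron bound to transferrin (Trf) through the transferrin receptor (Tfrc), and DMT1 (Slc11a2) carries the iron out of the endosome. Ferritin, built of heavy (Fth1) and light (Ftl1) chains, stores iron, and ferroportin (Slc40a1) exports it with the help of the multicopper ferroxidases ceruloplasmin (Cp) and hephaestin (Heph), which oxidise iron as it leaves the cell. In the retina, Müller glia and the pigment epithelium are known sites of both ferroxidases, and loss of both is known to load the retina with iron.

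Part of this control runs through the iron-responsive element (IRE), a hairpin that iron regulatory proteins bind when iron is scarce. In a 5′ UTR the bound hairpin holds back translation, as for ferritin and ferroportin, and in the 3′ UTR of Tfrc it protects the mRNA from decay. The motif searched, on the transcript's own strand, was a C, then 5 bases, the loop CAGTGN and 5 more bases that could pair with the first 5, with G-T pairs allowed. It was present in a GENCODE M21 5′ UTR of 3 of the 9 genes (Fth1, Ftl1 and Slc40a1), against 31 of 21200 genes with a 5′ UTR (0.146%). Of the 9 genes, 1 had it in a 3′ UTR, where Tfrc held 4 matches, against 144 of 21186 genes (0.68%). Ferritin, ferroportin and Tfrc are named above as carriers, so finding the motif in them was fixed in advance. The shares show only how rare the motif is. UTR lengths were not matched, and a match describes letters, not a bound site. The pattern allows no extra or unpaired base in the stem, so a gene without a match, such as Slc11a2, may still carry an element. The windows of 30 bases are shown because mRNA and protein of genes with this element can change separately, and only mRNA was measured here. They read 5′ to 3′, with the loop in capitals and coordinates on GRCm38:
Fth1, 5′ UTR, chr19:9982731-9982760, plus strand: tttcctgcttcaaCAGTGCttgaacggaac
Ftl1, 5′ UTR, chr7:45459779-45459808, minus strand: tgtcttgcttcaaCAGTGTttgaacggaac
Slc40a1, 5′ UTR, chr1:45925465-45925494, minus strand: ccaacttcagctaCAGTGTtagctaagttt
Tfrc, 3′ UTR, chr16:32631218-32631247, plus strand: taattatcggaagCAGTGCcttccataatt
Tfrc, 3′ UTR, chr16:32631597-32631626, plus strand: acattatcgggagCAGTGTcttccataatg
Tfrc, 3′ UTR, chr16:32631662-32631691, plus strand: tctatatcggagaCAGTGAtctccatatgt
Tfrc, 3′ UTR, chr16:32631709-32631738, plus strand: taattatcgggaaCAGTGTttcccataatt

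Total counts ran from 19491717 to 62532343 per library, and MSC-EVs replicate 3 was the deepest. Pde6b fell by 2.23 on the log2 scale from WT to NS rd10 (edgeR, SE 0.10, adjusted p = 3.02e-08). All 8 rod markers were lower in NS rd10, where 30.1% of all genes were. The Y-linked genes Kdm5d, Uty, Ddx3y and Eif2s3y had 733 to 1957 counts in MSC-EVs replicates 1 and 2 and at most 8 in each of the other 7 libraries. A covariate for Y-linked expression was therefore tried in the comparisons with MSC-EVs. Only MSC-EVs replicates 1 and 2 carry it, so it cannot be told apart from treatment in them. With this covariate the difference between groups rests almost only on MSC-EVs replicate 3. No source used here says whether the libraries of a group came from separate animals, so p-values measure the spread between these libraries only. In whole tissue, fewer cells of a type and less RNA per cell cannot be told apart.

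In FPKM, which scales a gene's fragments to transcript length and depth, the 9 genes covered a wide range of levels in WT. The ferritin chains were highest, with 546 ± 1.99 FPKM for Fth1 and 259 ± 1.81 for Ftl1 (mean ± SD, n = 3 here and below). Trf (48.5 ± 9.31) and Cp (43.6 ± 0.836) followed, and their libraries overlapped. Tfrc stood at 32.4 ± 0.304, Slc11a2 at 14.6 ± 1.42, Heph at 2.77 ± 0.311, Slc40a1 at 1.97 ± 0.211 and Slc11a1 at 0.14 ± 0.02, and the libraries of these neighbours did not overlap. In NS rd10 the order of means was the same but the distances were not. Fth1 had 771 ± 50.1 FPKM, Ftl1 583 ± 38.2, Trf 483 ± 23.8 and Cp 205 ± 34.7, so that Trf lay closer to ferritin than to Cp. Slc40a1 (2.75 ± 0.408) and Slc11a1 (2.28 ± 0.382) overlapped at the lower end. Of all genes with a value above 0, 7.85% had a higher mean FPKM than Trf in WT and 0.318% in NS rd10, and for Cp these shares were 8.89% and 1.16%. In MSC-EVs rd10, the libraries of Ftl1 (484 ± 65 FPKM) and Trf (481 ± 43.5) overlapped, as did those of Slc40a1 (2.91 ± 0.121) and Slc11a1 (2.46 ± 0.833).

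The first comparison asked how the degenerating retina of saline-treated rd10 mice differed from WT. Of the 9 genes, 6 were higher and 1 was lower in NS rd10 at an adjusted p under 0.05, and 2 did not pass. Trf, Slc11a1, Cp and Heph were differentially expressed, meaning that they passed with a change of at least 1 on the log2 scale. Among all 14644 genes tested, 61.3% passed in either direction, 31.2% were higher and 30.1% lower, so passing by itself was common. Differential expression was less so, at 12.7% in either direction and 9.16% in the upward one. The median log2 fold change was 0.99 over the 9 genes and 0.005 over all genes. The 3 NS libraries lay above the 3 WT libraries for 6 genes and below for 1, against 33.6% and 33.4% of all genes. Values below are counts scaled to library size by TMM (CPM), in the order of replicates 1, 2 and 3, and every test is edgeR's quasi-likelihood test with Benjamini-Hochberg adjustment over all genes.

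**Figure D1:**
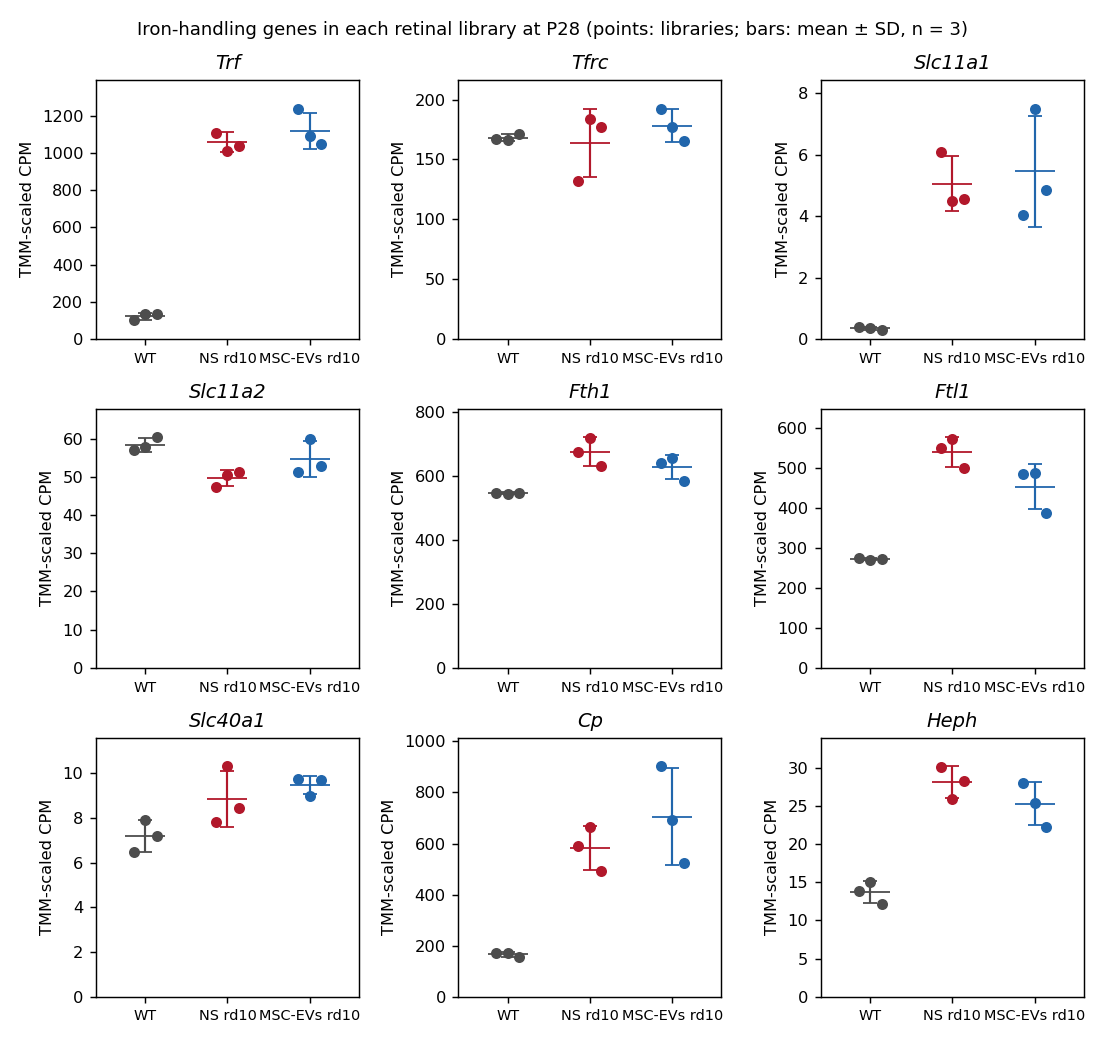
TMM-scaled CPM (vertical axis, from 0) of the 9 iron-handling genes in WT, NS rd10 and MSC-EVs rd10 retinas; points are libraries, long bars the mean and capped bars ± SD (n = 3). Trf, Slc11a1, Ftl1, Cp and Heph sit higher in both rd10 groups than in any WT library, while Tfrc libraries overlap between all groups.

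Among the uptake genes, Trf (chr9:103204001-103230444), the iron carrier of plasma and extracellular fluid, had 100, 134 and 132 CPM in WT. In NS rd10 it had 1110, 1010 and 1040 CPM, and the groups lay far apart. The rise was 8.68-fold, a log2 fold change of 3.12 (SE 0.11, adjusted p = 6.27e-09), and 1.88% of genes had a larger one. Tfrc (chr16:32608920-32632794), the receptor for that carrier, had 167, 166 and 171 CPM in WT and 132, 184 and 177 in NS rd10. Its groups overlapped, and its log2 fold change was -0.04 (SE 0.11, adjusted p = 0.774). It was 0.0952 without NS replicate 1, the lowest library. Per FPKM, Trf exceeded Tfrc by 1.49 ± 0.287 times in WT and by 14 ± 3.56 times in NS rd10, with no overlap.

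The metal transporters DMT1 and NRAMP1 are related proteins with different sites of action. Slc11a2 (chr15:100387898-100425072), which encodes DMT1 of the endosome, had 56.9, 57.9 and 60.3 CPM in WT and 47.4, 50.5 and 51.3 in NS rd10. All NS libraries lay below all WT libraries, and the fall was small, by 0.23 on the log2 scale (SE 0.06, adjusted p = 0.00486). This call was not kept on the log2(FPKM + 1) scale with limma (log2 fold change -0.11, adjusted p = 0.257), where the median of all genes rose to 0.13 and the share of higher genes among those passing went from 50.8% to 72.2%. Slc11a1 (chr1:74375195-74386062) encodes NRAMP1, which moves metals across the phagosome membrane of macrophages, and had 0.404, 0.358 and 0.301 CPM in WT, which were 9, 8 and 6 counts. In NS rd10 it reached 6.08, 4.5 and 4.57 CPM, from 180, 92 and 100 counts. In the comparisons with WT it passed the count filter only through the rd10 libraries, so its place among the higher genes adds no support. Its rise was the largest of the 9 genes, at 14.1-fold (log2 fold change 3.81, SE 0.27, adjusted p = 2.15e-07), although its level in NS rd10 remained the lowest. The ratio of Slc11a2 to Slc11a1 in FPKM was 106 ± 16.5 in WT and 6 ± 1.03 in NS rd10.

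Both ferritin chains rose, the light chain more. Fth1 (chr19:9980598-9985098), whose chain carries the ferroxidase site of ferritin, had 549, 544 and 549 CPM in WT and 676, 721 and 632 in NS rd10. The groups did not overlap, and the rise was 1.24-fold (log2 fold change 0.31, SE 0.06, adjusted p = 0.000931). Ftl1 (chr7:45457944-45459884), whose chain favours the iron core, had 274, 269 and 271 CPM in WT and 549, 571 and 499 in NS rd10. It rose 1.99-fold (log2 fold change 0.99, SE 0.06, adjusted p = 7.31e-08), just short of the limit for differential expression. The ratio of Ftl1 to Fth1 in FPKM was nearly fixed within a group, at 0.478, 0.473 and 0.473 in WT and 0.759, 0.755 and 0.755 in NS rd10. Ftl1 shares 50.9% of its stretches of 50 bases with processed copies. The copy in the table, Ftl1-ps1, had at most 58 counts in any library, at most 0.444% of their sum. Ftl2-ps and Ftl1-ps2 have no values of their own here, and Gm15590 was not looked up. Reads from these copies could therefore count towards Ftl1. For Fth1 the shared part is 1.6%.

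On the export side, the ferroxidases rose and the exporter itself did not pass. Cp (chr3:19957054-20009145) had 171, 173 and 154 CPM in WT and 591, 665 and 492 in NS rd10, with no overlap. Its rise was 3.51-fold (log2 fold change 1.81, SE 0.11, adjusted p = 3.58e-07). Heph (chrX:96455359-96574485), the membrane-bound relative of Cp, had 13.9, 15.1 and 12.2 CPM in WT and 30.1, 25.9 and 28.3 in NS rd10. It rose 2.05-fold (log2 fold change 1.04, SE 0.10, adjusted p = 2.99e-06). This lies at the limit for differential expression, and the log2 fold change was 0.96 without WT replicate 3 and 0.97 without NS replicate 1. In FPKM, Cp exceeded Heph by 15.9 ± 1.54 times in WT and by 32.4 ± 7.64 times in NS rd10. Part of this comes from scaling to length, since the transcript length implied for Cp was a mean of 3512 bases in WT and 2979 in NS rd10. A shorter length raises the FPKM. Slc40a1 (chr1:45908068-45926523), which encodes ferroportin, had 6.46, 7.92 and 7.17 CPM in WT and 7.83, 10.3 and 8.42 in NS rd10. These groups overlapped, and the log2 fold change was 0.29 (SE 0.14, adjusted p = 0.0904). It passed with limma on log2(FPKM + 1), at 0.33 (adjusted p = 0.0256), on the scale whose median shift is given above.

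The genes whose profile over the 9 libraries was nearest to that of Cp, by the root mean square difference of mean-centred log2 CPM among 14451 genes, were Vwa5a (0.13), Tlr3 (0.143) and Mmp14 (0.147). Tlr3 is the receptor for double-stranded RNA, and Mmp14 is a membrane-bound matrix metalloproteinase. Mean CPM of Vwa5a was 12.9 in WT, 45.4 in NS rd10 and 56.3 in MSC-EVs rd10. The same means were 5.32, 19.5 and 22.6 for Tlr3 and 11.5, 37.7 and 47.3 for Mmp14. Among the 9 genes, Heph was nearest to Cp, at 0.519, which is farther than any of these.

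Markers of several cell types moved together with these genes. The marker counts here and in the next paragraph stand against 31.2% of all genes higher and 30.1% lower, and none was tested as a set. All 10 microglia and macrophage markers were higher in NS rd10 (median log2 fold change 2.86), and their summed level was 72.7 to 76.6 CPM in WT and 372 to 450 in NS rd10. Slc11a1, known from such cells, rose beside them. Aif1, with 8, 4 and 4 counts in WT, passed the count filter only through NS rd10, as Slc11a1 did. The direction of Aif1 was therefore fixed in advance. All 7 gliosis markers were higher as well (median 2.67), with summed levels of 211 to 227 CPM in WT and 1490 to 1970 in NS rd10. So were 7 of 8 Müller glia markers (median 0.83), with sums of 4410 to 4710 and 5370 to 6230 CPM. Of 6 markers of infiltrating monocytes and neutrophils, 4 were tested and higher, each with 0 to 4 counts in every WT library. They passed the count filter only through NS rd10, so this direction was fixed in advance. The list summed to 0.15 to 0.269 CPM in WT and 6.59 to 16.3 in NS rd10. Of 4 astrocyte markers, which share Gfap with the gliosis list, all were higher (median 1.76), with sums of 68.6 to 75.3 and 288 to 470 CPM. So were 3 of 5 tested fibroblast markers (median 1.45), with sums of 26.7 to 29.6 and 66 to 71.1 CPM. Of 8 endothelial and pericyte markers 7 were higher and 1 lower, while their sum went from 1170 to 1260 CPM in WT to 765 to 834 in NS rd10. That sum fell through the lower gene, Vtn, with means of 885 CPM in WT and 264 in NS rd10. Of 5 tested ciliary body and iris markers 4 were higher and 1 lower, while their sum went from 143 to 147 CPM to 51.6 to 69.6. Here the lower gene was Aqp1, with means of 132 and 35.9 CPM. Otx1 (5, 2 and 2 counts in WT) and Cldn2 (5, 13 and 5) passed the count filter only through NS rd10. Their direction was fixed in advance. The part of these markers in the rise of Cp, Heph, Slc11a1 and ferritin was not tested.

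Oligodendrocytes and the pigment epithelium are known to make transferrin. Of 8 oligodendrocyte markers 3 were tested, of which 1 was higher, 1 lower and 1 did not pass. Cnp rose (log2 fold change 1.31), from a mean of 19.6 CPM in WT to 48.6 in NS rd10. Mbp did not pass (0.14, adjusted p = 0.106). The summed level of the list, which rose mainly through Cnp, was 62.3 to 64.1 CPM in WT and 90.2 to 98.5 in NS rd10. Mog, Mag, Mobp, Cldn11 and Sox10 had 0 to 18 counts in each WT and NS library. Of 8 pigment epithelium markers 2 were higher, with sums of 58 to 104 CPM in WT and 62.4 to 253 in NS rd10 that overlapped, while Trf rose in all 3 NS libraries. The part of either list in the rise of Trf was not tested. Erythrocyte markers, a sign of blood, summed to 68.8 to 93.8 CPM in WT and 63.7 to 67.2 in NS rd10, and 1 of 5 was lower. In the annotation, Trf shares 59.4% of its stretches of 50 bases with Gm20425, an overlapping locus on the same strand that has no values of its own here.

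**Figure D2:**
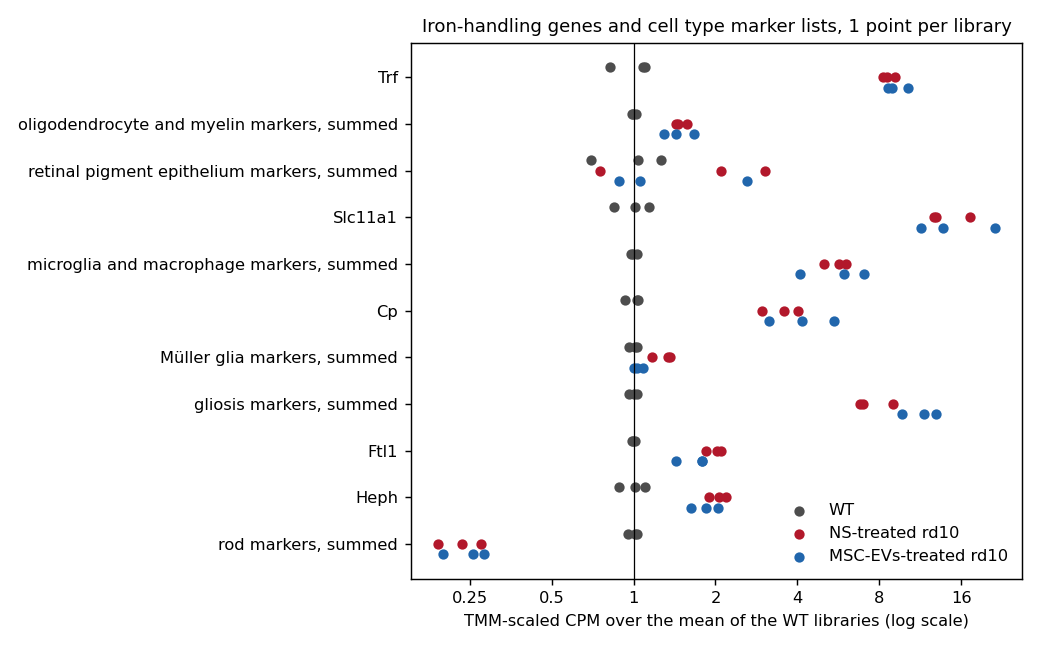
Level in each library divided by the mean of the WT libraries (log axis) for Trf, Slc11a1, Cp, Ftl1 and Heph and for some summed marker lists. These lists are oligodendrocyte, pigment epithelium, microglia and macrophage, Müller glia, gliosis and rod markers. The other iron-handling genes and lists are not shown. Points are libraries, coloured by group. The NS rd10 libraries of Trf, Slc11a1 and Cp, and of the microglia and gliosis lists, sit well above 1, while rod markers sit below it.

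The second comparison asked whether MSC-EVs changed these genes in rd10 retinas. None of the 9 passed (edgeR, adjusted p from 0.192 to 0.851), where 1.16% of the 14765 genes tested did. DESeq2 also called 0. At an unadjusted p under 0.05, each tool had 1 gene, Ftl1. The log2 fold changes lay between -0.25 and 0.28, with a median of 0.10 against -0.002 over all genes. This comparison shares its NS libraries with the first one, so the values are given side by side and not correlated.

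Ftl1 came closest, with 485, 487 and 387 CPM in MSC-EVs rd10 against 549, 571 and 499 in NS rd10. All 3 MSC-EVs libraries were lower, as for 13.3% of all genes, and the log2 fold change was -0.25 (SE 0.10, edgeR adjusted p = 0.192). It was -0.478 with the Y-linked covariate, which leaves mainly MSC-EVs replicate 3, and -0.148 without MSC-EVs replicate 3 (adjusted p = 0.323). The ratio of Ftl1 to Fth1 in FPKM was 0.722, 0.702 and 0.621, below every NS library and above every WT library. Fth1 itself had 640, 658 and 585 CPM with MSC-EVs and overlapped with NS (log2 fold change -0.11, SE 0.07, adjusted p = 0.452).

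Cp had 902, 692 and 522 CPM with MSC-EVs, a wide spread (705 ± 190), and its log2 fold change against NS was 0.28 (SE 0.22, adjusted p = 0.537). It was -0.16 with the Y-linked covariate, 0.0669 without MSC-EVs replicate 1, 0.171 without NS replicate 3 and 0.454 without MSC-EVs replicate 3, none of which passed, and FPKM gave 210 ± 63.3 against 205 ± 34.7 in NS rd10. Of 7 gliosis markers 3 were higher than in NS, where 1.16% of all genes passed in either direction. The list summed to 2130 to 2820 CPM with MSC-EVs, and both this sum and Cp were highest in replicate 1 and lowest in replicate 3. The part of these markers in the spread of Cp was not tested. Heph had 28, 25.4 and 22.3 CPM and Slc40a1 9.72, 8.99 and 9.71, and both overlapped with NS. Their log2 fold changes were -0.16 (SE 0.11, adjusted p = 0.447) and 0.11 (SE 0.14, adjusted p = 0.712).

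Trf had 1240, 1090 and 1050 CPM with MSC-EVs, close to NS, with a log2 fold change of 0.09 (SE 0.08, adjusted p = 0.541). Tfrc had 192, 177 and 165 CPM (log2 fold change 0.12, SE 0.13, adjusted p = 0.644) and Slc11a2 had 51.2, 60 and 52.7 (0.14, SE 0.08, adjusted p = 0.377). For both, the MSC-EVs and NS libraries overlapped. Slc11a1 had 4.05, 7.5 and 4.85 CPM (log2 fold change 0.10, SE 0.24, adjusted p = 0.851), and the sign turned to -0.18 without MSC-EVs replicate 2. That library also had the highest sum of microglia and macrophage markers of its group, at 7.01 times the WT mean against 5.95 and 4.07 in replicates 1 and 3. Between replicates 1 and 3 the order was opposite, with Slc11a1 lower and the marker sum higher in replicate 1. The part of these markers in the spread of Slc11a1 was not tested.

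**Figure D3:**
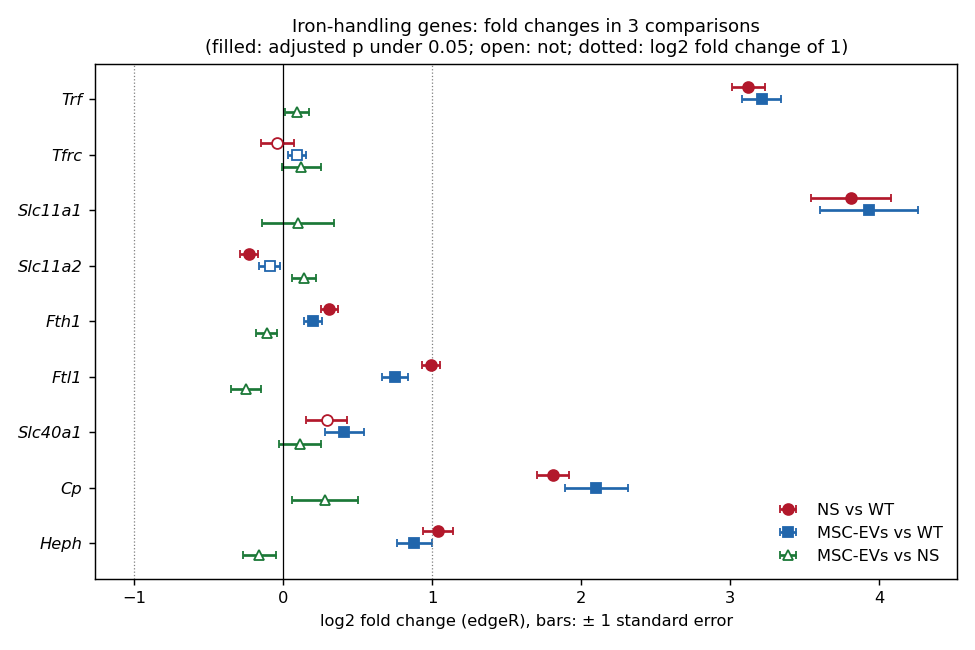
Log2 fold change of the 9 iron-handling genes (horizontal axis) with its standard error as a bar, for NS rd10 against WT, MSC-EVs rd10 against NS rd10 and MSC-EVs rd10 against WT. Values against NS lie between -0.25 and 0.28, while those of Trf and Slc11a1 against WT lie above 3 in both rd10 groups.

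The third comparison set MSC-EVs rd10 against WT, and 7 of the 9 genes were higher and 0 lower, where 28.3% and 27.2% of the 14623 genes tested were. Differentially expressed were 3 of them, Trf, Slc11a1 and Cp, against 9% of all genes in the upward direction. The 3 MSC-EVs libraries lay above all WT libraries for 7 genes, against 31.9% of all genes. The log2 fold change was 3.21 for Trf (SE 0.13, adjusted p = 1.19e-06), 3.93 for Slc11a1 (SE 0.33, adjusted p = 9.15e-06) and 2.10 for Cp (SE 0.21, adjusted p = 0.000495). Heph rose 1.84-fold and Ftl1 1.68-fold, with log2 fold changes of 0.88 (SE 0.12, adjusted p = 0.000158) and 0.75 (SE 0.09, adjusted p = 0.000122).

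The smaller differences from WT were less firm. Fth1 rose by 0.20 on the log2 scale (SE 0.06, adjusted p = 0.0144), and the call was lost without WT replicate 2 (0.20, adjusted p = 0.0613). With the Y-linked covariate, which leaves mainly MSC-EVs replicate 3, its change was 0.09. Slc40a1 rose 1.32-fold (log2 fold change 0.41, SE 0.13, adjusted p = 0.0197), and this call was lost with the covariate and without WT replicate 1, WT replicate 3 or MSC-EVs replicate 1 (adjusted p from 0.0532 to 0.0799). Tfrc was at 0.09 (SE 0.06, adjusted p = 0.256) and Slc11a2 at -0.09 (SE 0.07, adjusted p = 0.334). Tfrc passed without MSC-EVs replicate 3 (0.15, adjusted p = 0.0362) and with limma on log2(FPKM + 1) (0.24, adjusted p = 0.0139), where the share of higher genes among those passing went from 51% to 71.7%. Slc11a2 passed without MSC-EVs replicate 2 (-0.17, adjusted p = 0.0427).

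Around these genes, 71 further genes of iron, heme and copper handling were followed in 8 lists, of which 61 were tested between NS rd10 and WT. Of these, 18 were higher, 13 lower and 30 did not pass, a share of 50.8% against 61.3% of all genes. Their median log2 fold change was 0.017. Differentially expressed were 5 in the upward direction (Lcn2, Steap4, Scara5, Hmox1 and Blvrb) and 1 in the downward one (Slc31a2), against 9.16% and 3.56% of all genes.

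Each list count below stands against the 31.2% of all genes that were higher and the 30.1% that were lower, and none was tested as a set. Iron uptake and reduction had 7 of 12 tested genes higher and 1 lower. Lcn2, a secreted protein that binds iron-carrying siderophores and also counts among the gliosis markers, had 6.15, 6.13 and 5.16 CPM in WT and 190, 389 and 134 in NS rd10 (log2 fold change 5.35, SE 0.61, adjusted p = 0.00194). Steap4, a metalloreductase, had 1.84, 1.25 and 1.15 CPM in WT and 27, 42 and 17.2 in NS rd10 (log2 fold change 4.33, SE 0.47, adjusted p = 0.000573). Both had wide spreads within NS rd10, with replicate 2 highest, but no overlap with WT. Scara5, a receptor for ferritin, rose by 1.25 on the log2 scale (SE 0.16, adjusted p = 3.78e-05), and Slc39a8, a zinc and iron importer, by 0.96 (SE 0.25, adjusted p = 0.00483).

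Heme handling had 5 of 10 tested genes higher and 0 lower. Hmox1, the inducible heme oxygenase that frees iron from heme, had 3.68, 4.07 and 3.86 CPM in WT and 31.8, 25.5 and 25.9 in NS rd10 (log2 fold change 2.84, SE 0.12, adjusted p = 4.12e-09). Blvrb, a biliverdin reductase, rose by 1.05 (SE 0.20, adjusted p = 0.000567), Lrp1, which takes up heme bound to hemopexin, by 0.70 and Abcg2, a heme exporter, by 0.47. In heme synthesis 3 of 8 were lower, 1 was higher and 4 did not pass. Cpox fell by 0.66 on the log2 scale, Uros by 0.58 and Urod by 0.38, all of them enzymes of porphyrin formation, and the call of Urod was lost in FPKM with limma. Fech, which inserts the iron, rose by 0.16 (adjusted p = 0.0443), a call lost with DESeq2 and in 4 of the 6 fits that left out a library.

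The iron regulatory proteins and their control were lower where they passed, with 0 of 3 higher and 2 lower. Fbxl5, which marks Ireb2 for degradation when iron is plentiful, had 344, 339 and 332 CPM in WT and 206, 225 and 213 in NS rd10, a fall by 0.66 on the log2 scale (adjusted p = 7.15e-07). Aco1 fell by 0.22 (adjusted p = 0.00818), a call lost in FPKM with limma. Among storage and chaperones, 1 of 3 was higher and 1 lower. Pcbp2, which delivers iron to ferritin, fell by 0.74 (adjusted p = 7.96e-07), and Ncoa4, the receptor that leads ferritin to the lysosome, rose by 0.23 (adjusted p = 0.00306). In the hepcidin axis 2 of 3 were higher, Neo1 at 0.47 and Hfe at 0.27 (adjusted p = 0.0237), the latter a call lost with DESeq2 and in 3 of 6 fits without a library. Hamp, which encodes hepcidin, the ligand that removes ferroportin from the membrane, was not among the genes that passed the filter.

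Mitochondrial iron and iron-sulfur genes had 1 of 15 higher, 4 lower and 10 that did not pass. The lower count was near the share over all genes, and the higher count was below it. Slc25a28, a mitochondrial iron importer, fell by 0.41 (adjusted p = 0.00251), and Lyrm4 and Abcb8 fell by 0.32 and 0.27, while the scaffold gene Iscu rose by 0.23, a call lost in 3 of 6 fits without a library. Slc25a28, Lyrm4 and Abcb8 did not pass with limma in FPKM. Copper supply, on which both ferroxidases depend, had 1 of 7 higher, 2 lower and 4 that did not pass. Slc31a2, an endosomal copper transporter, had 129, 136 and 146 CPM in WT and 66.4, 73.4 and 65.1 in NS rd10, and it fell by 1.01 (SE 0.07, adjusted p = 1.1e-07). Atp7b, a copper pump that loads ceruloplasmin in the liver, fell by 0.86 (adjusted p = 0.000176), and the copper chaperone Atox1 rose by 0.41 (adjusted p = 0.00389).

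**Figure D4:**
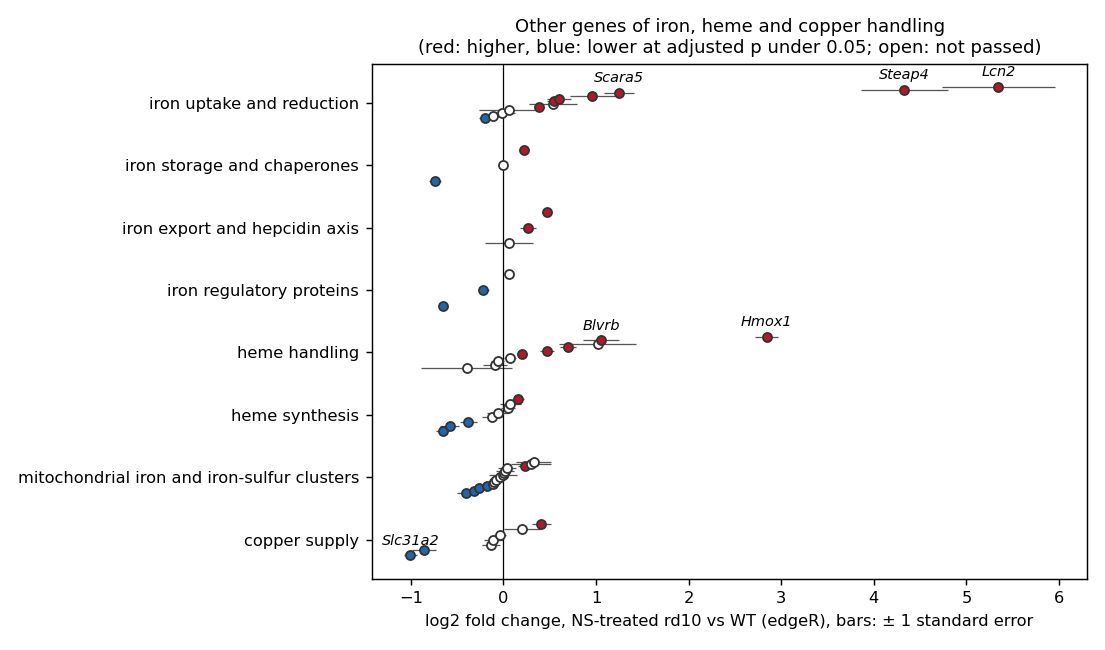
Log2 fold change of NS rd10 against WT for the further genes of iron, heme and copper handling, by list; each point is a gene, and genes past an adjusted p of 0.05 are filled. Lcn2, Steap4 and Hmox1 stand above the rest at 5.35, 4.33 and 2.84, and Slc31a2 is lowest at -1.01.

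Of these further genes, 60 were tested between MSC-EVs and NS rd10, and 0 passed with edgeR, where 11 had an unadjusted p under 0.05. DESeq2 passed 2 of them, Steap2 and Atp7a. Steap2, another metalloreductase, had 90.5, 82.9 and 90.6 CPM in NS rd10 and 120, 100 and 107 with MSC-EVs (log2 fold change 0.31, edgeR adjusted p = 0.0811). Atp7a, the copper pump of the secretory route outside the liver, had 19.2, 11.4 and 12.4 CPM in NS rd10 and 28, 24.2 and 22.6 with MSC-EVs (log2 fold change 0.79, SE 0.20, edgeR adjusted p = 0.0908). The MSC-EVs libraries of both genes lay above all NS libraries, as for 12.9% of all genes. Both were chosen after their values were seen.

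Between MSC-EVs rd10 and WT, 61 further genes were tested, 18 higher and 16 lower, a share of 55.7% against 55.5% of all genes. Differentially expressed were 4 upward (Lcn2, Steap4, Hmox1 and Flvcr2) and 1 downward (Atp7b), against 9% and 3.2% of all genes. Lcn2 stood at 506, 342 and 144 CPM (log2 fold change 5.83), Steap4 at 71.4, 52.5 and 43.8 (5.29, adjusted p = 7.26e-06) and Hmox1 at 32.3, 52.6 and 19 (3.16, SE 0.45, adjusted p = 0.00252). For these 3 genes every MSC-EVs library lay above every WT library. Flvcr2, a choline and heme transporter, rose by 1.12 (adjusted p = 0.00733), a call lost with all 9 libraries in one fit. Atp7a rose by 0.99 (adjusted p = 0.000118) where Atp7b fell by 1.10 (adjusted p = 0.000264), and Slc25a37, a mitochondrial iron importer, rose by 0.94 (adjusted p = 0.000539). Among the other genes with the largest changes in their lists, the copper genes Slc31a2 and Cox17 fell by 0.925 and 0.45. The iron chaperones Pcbp2 and Pcbp1 fell by 0.885 and 0.16, Fbxl5 by 0.58, and the mitochondrial genes Slc25a28, Lyrm4 and Abcb8 by 0.58, 0.45 and 0.31. In heme synthesis Uros, Urod and Cpox fell by 0.67, 0.535 and 0.50. The importers Slc39a8 and Slc39a14 rose by 1.00 (just under the limit) and 0.89, Lrp1 by 0.765, Blvrb by 0.65, Neo1 by 0.325, Ncoa4 by 0.24 and Ireb2 by 0.19. With the Y-linked covariate the calls of Slc39a8, Neo1, Pcbp1, Ireb2, Blvrb, Uros, Lyrm4 and Abcb8 were lost, and those of Pcbp1, Ireb2, Blvrb and Abcb8 were also lost in 2 or more fits without a library.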

How the data were processed

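RNA-seq was measured in 9 whole-retina libraries. The authors deposited, per gene and library, an estimated count (expected count), not scaled to depth, and an FPKM value, scaled by them to transcript length and depth. The submitters' processing notes name fastp, Bowtie2, HISAT2, StringTie 1.3.1 and RSEM; genome build and annotation are not given in the sources used here. Whether counting used strand is not stated, so reads of overlapping antisense genes cannot be told apart. Between 9.2% and 11.7% of genes per library had decimals, so the estimated counts were rounded first. Replicates differed by more than sampling noise (chi-square per degree of freedom 4.1 to 31.31).

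Comparisons were pairwise fits of 6 libraries in R 4.3.3, run with the quasi-likelihood test of edgeR 4.0.16 (robust glmQLFit and glmQLFTest after filterByExpr and TMM), with adjustment over all genes. The SE is the absolute log2 fold change divided by the square root of F. Alternatives, given in the closing section, were DESeq2 1.42.0, other scalings and filters, all 9 libraries in one fit, a replicate block, limma 3.58.1 on log2(FPKM + 1) or log2(FPKM + 0.1), which understates changes of low genes, a Y-linked covariate and leaving out each library. Test scripts were first tested on simulated data. Positions, UTRs and shared stretches came from GENCODE M21 (GRCm38), matched by gene identifier, and are not the authors' coordinates.

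The genes and lists were chosen with earlier results of these data known. Named in each comparison were the 9 genes, up to 4 genes per list with the largest absolute change among those passing, all differentially expressed list genes, and the 3 genes nearest to Cp. One marker gene is not reported here.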

Additional observations from a re-analysis of the deposited data

How the results depend on the processing

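The number of the 9 genes that passed stayed within 1.5 times its value (7 for NS against WT, 0 for MSC-EVs against NS, 7 for MSC-EVs against WT) under every alternative run. Of the further iron genes, 0 passed between MSC-EVs and NS, but 2 with DESeq2 (Steap2 and Atp7a), 4 with all 9 libraries in one fit (Steap2, Slc22a17, Atp7a and Slc48a1) and 0 to 1 when a library was left out (Atp7a without NS replicate 1, Steap2 without MSC-EVs replicate 2). Against WT, 34 passed with MSC-EVs, and 22 with the Y-linked covariate. The cause was not tested. All-gene calls between MSC-EVs and NS were 172, and ran from 0 (without NS replicate 3, without MSC-EVs replicate 1, or with limma without a filter) to 1026 with all 9 libraries in one fit, with 916 by DESeq2.

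The replicate numbers were not taken to pair the samples, since the labels name nothing shared and not every correlation of same-numbered deviations was over 0.1. These were 0.02, -0.07 and -0.07 for NS and WT, 0.09, 0.18 and 0.28 for MSC-EVs and NS, and 0.07, 0.01 and 0.02 for MSC-EVs and WT. With a replicate block, 7, 0 and 7 of the 9 genes passed and 2 further genes (Steap2 and Atp7a) passed between MSC-EVs and NS. All-gene calls were 8971, 403 and 7919 with the block against 8972, 172 and 8117 without. Between MSC-EVs and NS, every library correlated best with its own number, a hint of pairing from the data. These groups were littermates, but no source used here says that a shared number means a shared litter.

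Among the genes named, signs turned only for differences that had not passed. With limma on log2(FPKM + 1), log2(FPKM + 0.1) and log2(FPKM + 1) without a filter, in that order, Tfrc between NS and WT was at 0.112, 0.115 and 0.112, Slc11a2 between MSC-EVs and WT at 0.115, 0.122 and 0.115, Cp between MSC-EVs and NS at -0.000122, -0.00027 and -0.000122, and Trf there at -0.00812, -0.00814 and -0.00812. With the Y-linked covariate, MSC-EVs against NS gave -0.161 for Cp, -0.000753 for Trf, -0.00371 for Tfrc and -0.0519 for Slc11a1, and MSC-EVs against WT gave -0.0337 for Tfrc. With each library left out in turn, Tfrc ran from -0.131 to 0.0952 (without NS replicate 1) for NS against WT, and for MSC-EVs against NS it ran from -0.0162 (without NS replicate 1) to 0.214 and Slc11a1 from -0.177 (without MSC-EVs replicate 2) to 0.277. Slc11a1 in WT rests on 6 to 9 counts per library, and its fold change had the largest standard error of the 9 genes in each comparison.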

Other observations

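For Cp, the deposited counts and FPKM values did not give the same ratio in every group. The transcript length implied by a gene's count, its FPKM and the library total was 3628, 3611 and 3296 bases in WT, 3098, 2873 and 2968 in NS rd10 and 3414, 3488 and 3606 in MSC-EVs rd10. All NS libraries lay below all others, as for 1.81% of the 8504 genes with at least 5 FPKM and 100 counts. The highest library was 1.26 times the lowest for Cp, against a median of 1.04 over these genes. In means, NS rd10 and MSC-EVs rd10 were at 583 and 705 CPM but at 205 and 210 FPKM. The table gives 1 value per gene, and which transcripts of Cp were counted was not analysed here. Slc11a2 also varied, between 3268 and 4061 bases, while Tfrc and Fth1 varied little.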
